A study of Astatotilapia calliptera and Haplochromis burtoni and Pundamilia nyererei with 40 samples.

Results

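Testes of Tropheops sp. 'mauve' (TM) were compared with testes of Astatotilapia calliptera (AC), in 4 libraries of each species out of the 40 libraries of the series. The members are those 8 libraries, taken from their labels, and the readout is the messenger RNA of 28001 genes and 557 families of transposable elements (TEs). Both species live in Lake Malawi. AC feeds on a broad diet, whereas TM grazes algae and belongs to the Mbuna, the cichlids of rocky shores. All fish were labelled wild-type, AC and TM fish were raised in aquaria with conspecifics under shared conditions, and each library came from testes of size-matched individuals; ages are not given in the sources used here. Testes of a further Mbuna, Maylandia zebra (MZ, 2 libraries, from captive-bred dominant males bought from a commercial supplier), entered the same fit, and their values are given beside the main pair. Nothing in the labels says whether the replicates were single males, so p-values measure the spread between these libraries. Reads of all 3 species were mapped to the genome of AC, so a difference in RNA level and a difference in how well reads of TM map to a gene of AC cannot be told apart.

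A fish testis is built of cysts, in which Sertoli cells, the supporting cells, enclose clones of germ cells that pass together from spermatogonia through meiosis to sperm. Leydig cells between the cysts make androgens, of which 11-ketotestosterone is the main one in most teleosts. TEs are DNA stretches that can copy or move themselves, and in the germ line PIWI proteins loaded with small RNAs (piRNAs) hold them down. In a bulk library, fewer cells of a type and less RNA per cell cannot be told apart.

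Assigned counts lay between 23631390 and 25642737 in the 8 libraries. Values are given as CPM, the count of a feature scaled to a common library size with TMM factors, in the order of replicates 1 to 4, and differences as the log2 fold change of TM over AC with its standard error (SE). Distances between libraries, taken as the root mean square difference of log2(CPM + 1) over genes, ranged from 0.206 to 0.459 within TM, from 0.469 to 0.732 within AC and from 0.727 to 0.856 between the species. AC testes were thus the more variable group. No pair of replicates agreed within sampling noise (chi-square per degree of freedom at least 7.32). The label was checked against markers with the length-scaled TPM of AC, where testes and ovary can be set side by side. Of the 69 axoneme genes with at least 1 TPM in either organ, 66 were at least 2-fold higher in testes than in ovary. The testis factor dmrt1 had 36.8 TPM in testes and 2.66 in ovary, and cyp19a1a, the ovarian aromatase, had 0.371 and 214. Genes of the oocyte list did not separate the organs. Of 24 such genes, 21 lay within 2-fold of each other in AC testes and AC ovary, among them the egg regulator zar1 with 1961 and 1652 TPM. Their summed level in testes was 22497, 26261, 14564 and 28706 CPM in AC and 23737, 33997, 22615 and 40176 CPM in TM. The summed level of the axoneme genes ran the other way within AC, with 5590, 4271, 6875 and 1527 CPM, and was 5494, 3470, 5148 and 3630 CPM in TM. Both sums overlapped between the species. Their part in the differences described here was not tested.

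Roughly 1 in 5 genes differed. By edgeR's quasi-likelihood test with Benjamini-Hochberg adjustment over all features, 3779 of 20186 genes tested (18.7%) had an adjusted p under 0.05 (called), 1766 higher in TM (8.75%) and 2013 lower (9.97%). The groups of 4 libraries did not overlap in 3503 of these genes, or 17.4% of all genes tested. The lower calls were larger in size and sat at lower levels. Their median log2 fold change was -1.64 at a median level of 4.51 CPM, against 1.17 at 18.7 CPM for the higher calls. At least 32-fold differences numbered 155 among the lower and 74 among the higher calls, although the median over all genes was -0.01. Scaling by total counts in place of TMM moved that median to -0.18 and the split to 1261 higher and 2787 lower. MZ libraries were not uniformly on the side of the other Mbuna. Of the 1697 higher calls without overlap, both MZ libraries lay at or above the lowest TM value in 282 and at or below the highest AC value in 335. For the 1806 lower calls without overlap, both lay on the TM side in 306 and on the AC side in 484. In most of the rest, 905 of the higher and 815 of the lower calls, the MZ libraries were split between positions. Calls were spread over the genome: among the 10330 tested genes with a position in the RefSeq annotation of fAstCal1.2, matched by symbol, the share called higher ran from 5.95% to 9.48% per chromosome and the share called lower from 5.46% to 10.9%.

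**Figure D1:**
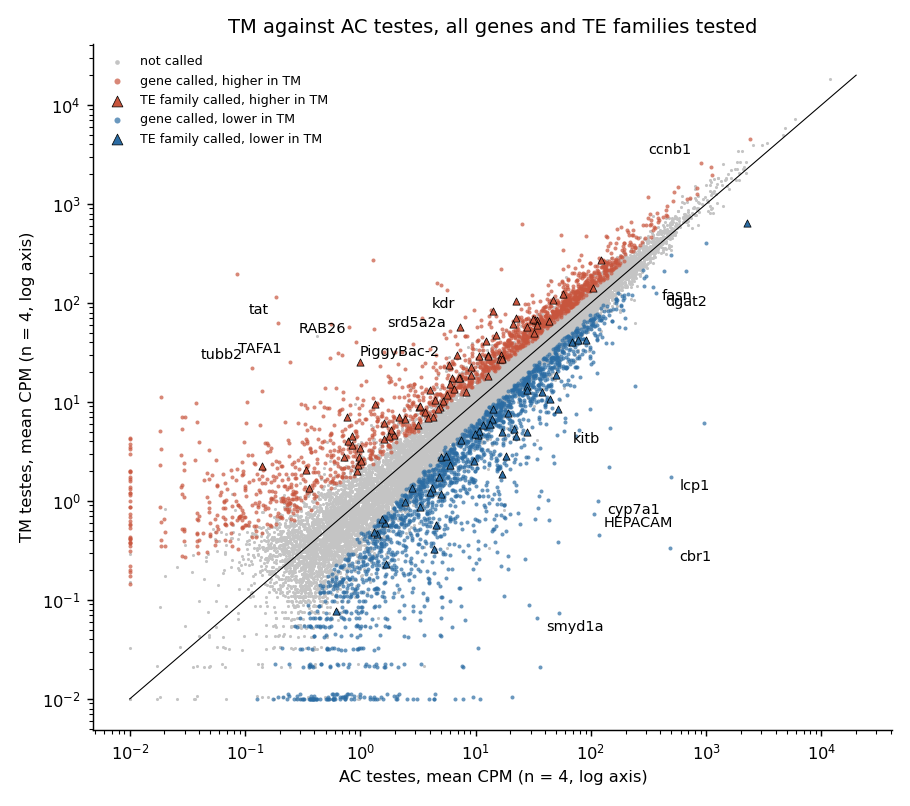
Mean level of every tested gene (dots) and TE family (triangles) in AC testes (x axis, mean CPM of 4 libraries) and TM testes (y axis, mean CPM of 4 libraries), both on log axes with means under 0.01 drawn at 0.01. Red marks the 1766 genes and 70 families called higher in TM and blue the 2013 genes and 44 families called lower, and the line is equality.

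Genes with the largest differences are given for a mean of at least 10 CPM, those with a name first. The leading named gene on the higher side was tat, which encodes tyrosine aminotransferase, the first enzyme of tyrosine breakdown (chromosome 7, 2564760 to 2574626; here and below, positions are those of the RefSeq annotation of fAstCal1.2, matched by symbol). It had 0.240, 0.160, 0.172 and 0.194 CPM in the 4 AC libraries and 73.0, 88.9, 85.8 and 1.13 CPM in the 4 TM libraries (log2 fold change 8.31 ± 1.203 SE, adjusted p = 0.00108). The groups did not overlap, but TM replicate 4 was close to AC and far below the other 3. The β-tubulin gene tubb2 had 0, 0.0401, 0.344 and 0.0775 CPM in AC and 24.2, 18.5, 19.1 and 27.1 CPM in TM (log2 fold change 7.45 ± 0.58 SE, adjusted p = 1.71e-05). Without AC replicate 3 the log2 fold change was 8.96. MZ had 22.4 and 17.8 CPM. TAFA1, which encodes a secreted chemokine-like peptide, had 0.441, 0.200, 0.310 and 0.0388 CPM in AC and 19.1, 39.3, 19.9 and 23.2 CPM in TM (log2 fold change 6.65 ± 0.49 SE, adjusted p = 1.17e-05). MZ again matched TM with 30.9 and 21.6 CPM. In AC both were genes of the brain rather than the testes: tubb2 had 131 TPM in male brain and 0.156 TPM in testes, and TAFA1 had 154 and 0.162 TPM. So did RAB26, a small GTPase of vesicle traffic, with 56.6 TPM in AC male brain and 0.622 TPM in AC testes. RAB26 had 0.641, 1.08, 1.101 and 0.814 CPM in AC testes and 40.2, 43.4, 35.5 and 41.3 CPM in TM testes (log2 fold change 5.45 ± 0.32 SE, adjusted p = 3.12e-06), while MZ, at 0.692 and 1.91 CPM, was close to AC. RAB26 was thus higher in every TM library than in any testis library of AC or MZ.

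TMEM120A, which encodes a multi-pass membrane protein, averaged 0.562 ± 0.403 CPM (SD, n = 4) in AC and 60.9 ± 18.2 CPM in TM (log2 fold change 6.77 ± 1.22 SE, adjusted p = 0.00368). Its MZ libraries disagreed, with 0.423 and 89.6 CPM. TNNI2 (ENSACLG00000001689), a troponin I of fast muscle, had 1.52, 1.08, 1.96 and 0.698 CPM in AC and 42.2, 43.4, 34.6 and 99.1 CPM in TM (log2 fold change 5.37 ± 0.43 SE, adjusted p = 2.43e-05). The endonuclease gene endouc had 2.04, 6.57, 7.26 and 4.26 CPM in AC and 126, 209, 101 and 175 CPM in TM (log2 fold change 4.92 ± 0.58 SE, adjusted p = 3.21e-04). Both genes were higher in every TM library than in any AC or MZ testis library. The growth hormone-releasing hormone gene ghrh was called at 0.544 ± 0.213 against 27.8 ± 36.6 CPM, but the TM libraries had 1.40, 28.9, 1.79 and 79.2 CPM, so that 2 of them were far above the others. Without TM replicate 4 its log2 fold change went from 5.66 to 4.28 (adjusted p = 0.0205). With replicate number as a block in the fit, ghrh lost its call (adjusted p = 0.0538). Of genes without a name, ENSACLG00000014080 differed by more than tat. It had 0.0401, 0.200, 0.103 and 0 CPM in AC and 207, 182, 196 and 207 CPM in TM (log2 fold change 11.09 ± 1.26 SE, adjusted p = 2.61e-04), and without AC replicate 2 the log2 fold change was 11.80. ENSACLG00000012384 rose from 1.28 ± 0.664 to 269 ± 32.1 CPM, with both MZ libraries at the AC level (1.08 and 1.46 CPM). ENSACLG00000003662 rose from 0.187 ± 0.0804 to 115 ± 28.7 CPM, with both MZ libraries at the TM level (246 and 70.7 CPM).

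The genes nearly absent from TM testes included several that were abundant in AC. cbr1 (ENSACLG00000000032), a carbonyl reductase, had 509.6, 729, 273 and 424 CPM in AC and 0.339, 0.447, 0.417 and 0.135 CPM in TM (log2 fold change -10.47 ± 0.43 SE, adjusted p = 7.96e-07). MZ, at 0.0385 and 0.0374 CPM, was lower still. A further entry of that name, ENSACLG00000000042, fell by less, with 108, 138, 91.7 and 112 CPM in AC and 40.2, 40.1, 37.9 and 51.2 CPM in TM. lcp1, the actin-bundling L-plastin of leukocytes, had 449, 581, 382 and 550.1 CPM in AC and 2.03, 1.21, 1.92 and 1.80 CPM in TM (log2 fold change -8.13 ± 1.18 SE, adjusted p = 0.00111). The MZ libraries were split between 1.23 and 218 CPM. HEPACAM, a cell adhesion molecule, had 132, 123, 44.9 and 129.7 CPM in AC and 0.677, 0.536, 0.792 and 0.946 CPM in TM (log2 fold change -7.18 ± 0.40 SE, adjusted p = 2.57e-06). Even the lowest AC library, replicate 3, was far above TM. cyp7a1, the rate-limiting enzyme of bile acid synthesis (chromosome 18, 31080521 to 31087251), had 136, 174, 85.6 and 66.8 CPM in AC and 1.19, 1.65, 0.667 and 0.450 CPM in TM (log2 fold change -6.86 ± 0.48 SE, adjusted p = 1.17e-05). In AC its TPM was 84.2 in testes, 2.61 in ovary and 0.949 in male brain. MZ testes, at 0.769 and 1.496 CPM, were as low as TM. smyd1a, a lysine methyltransferase known from muscle (chromosome 7, 37284317 to 37292528), had 36.6, 40.7, 19.5 and 40.8 CPM in AC, 0.0846, 0.0893, 0.0417 and 0.0450 CPM in TM and 41.3 and 30.5 CPM in MZ (log2 fold change -8.94 ± 0.39 SE, adjusted p = 7.96e-07). Unlike cbr1 and cyp7a1, this gene was low in TM and not in MZ.

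CBL, which encodes a ubiquitin ligase of receptor signalling, fell from 26.6 ± 16.2 to 0.259 ± 0.0890 CPM, and NXPE3 (ENSACLG00000016722) from 51.7 ± 25.9 to 0.388 ± 0.112 CPM. The unnamed ENSACLG00000013873 fell from 53.4 ± 11.03 to 0.0744 ± 0.0718 CPM, with a log2 fold change of -9.37 and of -10.16 without TM replicate 1. Among called genes with a change of at least 2-fold and the highest counts, the lower side held 2 enzymes of lipid synthesis. dgat2, which makes the last step to triglyceride, had 334, 410.1, 286 and 431 CPM in AC and 132, 124, 125 and 123 CPM in TM (log2 fold change -1.53 ± 0.15 SE, adjusted p = 9.16e-05). fasn, the fatty acid synthase, had 319.6, 438, 290.4 and 327 CPM in AC and 125, 145, 139.5 and 172 CPM in TM (log2 fold change -1.24 ± 0.21 SE, adjusted p = 0.00226). Mitochondrial aspartate aminotransferase, got2b, fell from 429.7 ± 92.2 to 208 ± 17.98 CPM. On the higher side were ccnb1, the mitotic cyclin B1, with 611, 1251, 575 and 1158 CPM in AC and 2172, 2669, 2139 and 3435 CPM in TM (log2 fold change 1.53 ± 0.31 SE, adjusted p = 0.00624), a histone H2B gene, H2BK1, with 373 ± 122 and 818 ± 191 CPM, lmcd1 with 453 ± 128 and 943 ± 328 CPM, ncdn with 514 ± 157 and 1063 ± 102 CPM, and si:dkey-37o8.1 with 526 ± 168 and 1331 ± 385 CPM. The calls of H2BK1, lmcd1 and ncdn were lost when some single libraries were left out. For H2BK1 these were AC replicate 1 and TM replicates 2 and 4 (adjusted p up to 0.0672), for lmcd1 AC replicates 1 to 3 and TM replicates 2 and 4 (up to 0.0917), and for ncdn TM replicates 1 and 3 (up to 0.0587). In AC each of the 5 had levels within 2-fold of each other in ovary and testes (ccnb1 755 and 599 TPM, H2BK1 905 and 953 TPM), and the part that the oocyte transcripts described above had in these calls was not tested.

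**Figure D2:**
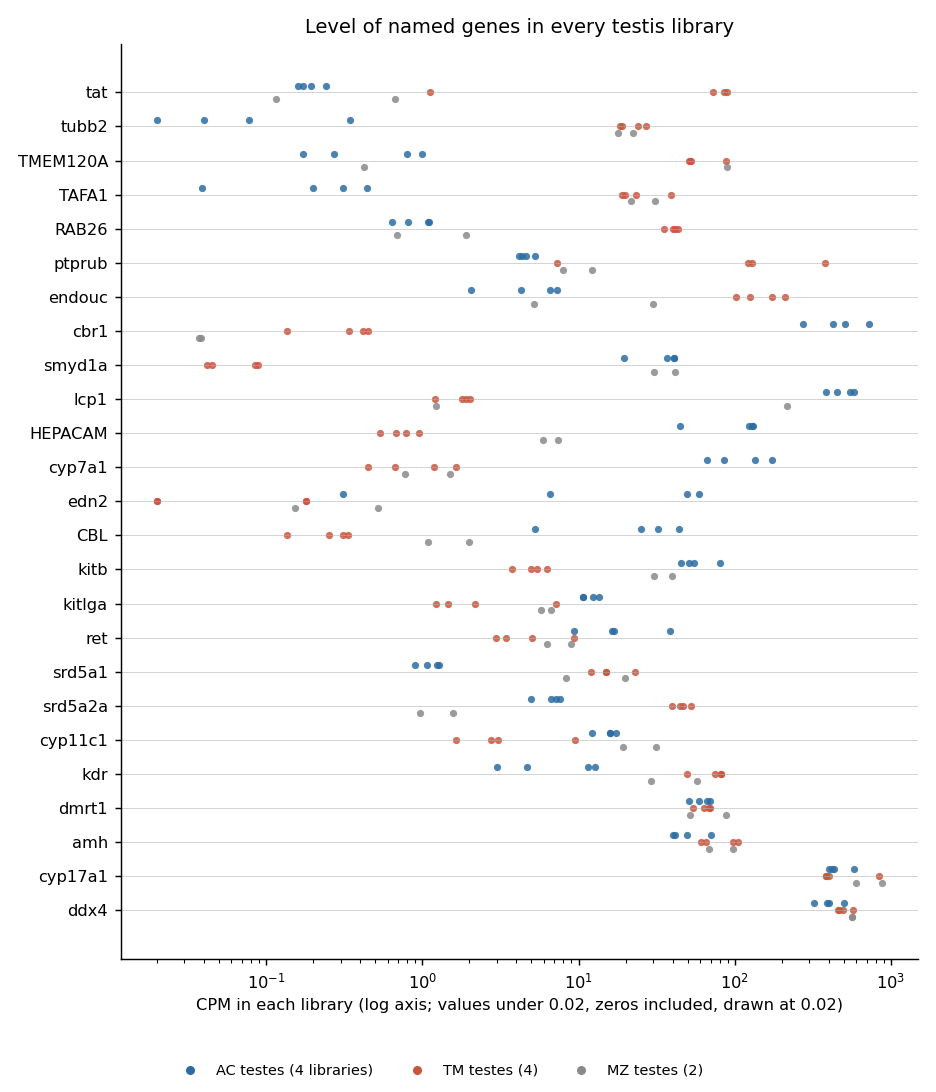
CPM of 25 named genes (rows) in each testis library on a log x axis, with AC in blue, TM in red and MZ in grey; each point is 1 library. From tat to endouc the AC points lie to the left of the TM points, from cbr1 to cyp11c1 they lie to the right except for the 5α-reductase genes srd5a1 and srd5a2a, kdr is higher in TM, and the points of dmrt1, amh, cyp17a1 and ddx4 overlap; values under 0.02 CPM are drawn at 0.02.

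Few genes were expressed in one species and near 0 in the other. Under 0.1 CPM in every TM library and at least 5 CPM in every AC library were 5 of 28001 genes (0.0179%), and the reverse held for 1 gene (0.00357%). smyd1a, with 6 reads in all over the 4 TM libraries, was the one with a name. ENSACLG00000004833 had 49.7, 25.0, 34.7 and 36.5 CPM in AC, 2 reads in all in TM and 136 and 294 CPM in MZ. ENSACLG00000027728 had 16.7, 12.1, 26.5 and 27.2 CPM in AC, 1 read in TM (replicate 3) and 18.6 and 8.60 CPM in MZ. Its log2 fold change of -10.35 was -12.05 without that library. ENSACLG00000009737 averaged 10.4 CPM in AC, with 1 AC library at 26.0, and had 3 reads in TM. ENSACLG00000011364 averaged 7.57 CPM in AC and had 2 reads in TM, and it was also near 0 in MZ (0.0769 and 0 CPM). In the reverse direction ENSACLG00000006929 had 2 reads over the 4 AC libraries and 11.2 ± 0.775 CPM (SD, n = 4) in TM, with 4.38 and 3.1 CPM in MZ.

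Some large differences were not uniform within a species. Among the 1726 called genes with a mean of at least 10 CPM, the highest library was at least 8-fold above the lowest in 19 genes within AC (1.1%) and in 4 within TM (0.232%), against 1.04% and 0.201% of all 10934 tested genes at that level. In TM these included tat and ptprub, a receptor-type tyrosine phosphatase (chromosome 11, 6836612 to 7024887). ptprub had 4.17, 5.29, 4.61 and 4.34 CPM in AC and 129, 380.3, 121 and 7.25 CPM in TM (log2 fold change 5.11 ± 0.88 SE, adjusted p = 0.00286), with a log2 fold change of 4.22 without TM replicate 2. TM replicate 4 was the low library in both genes. In AC they included edn2, the endothelin 2 gene (chromosome 22, 25641409 to 25645490), with 49.4, 59.13, 6.60 and 0.310 CPM in AC and 0, 0.179, 0 and 0.180 CPM in TM (log2 fold change -8.29 ± 1.56 SE, adjusted p = 0.00461). zgc:113307 had 2.32, 77.2, 48.7 and 2.56 CPM in AC and 0.593, 0.491, 0.708 and 0.811 CPM in TM. PIP5K1C, a lipid kinase, had 1.36, 41.1, 53.0 and 1.05 CPM in AC and 0.593, 0.536, 0.375 and 0.811 CPM in TM. Both genes were high in AC replicates 2 and 3 and near the TM level in replicates 1 and 4. Their log2 fold changes of -5.64 and -5.37 were -4.80 without AC replicate 2 and -4.63 without AC replicate 3, and that of edn2 was -7.67 without AC replicate 2. PIP5K1C lost its call with replicate number as a block in the fit (adjusted p = 0.0810). Other libraries were the high ones in SERPINB1 (ENSACLG00000015033), a protease inhibitor, with 2.16, 46.8, 2.27 and 49.5 CPM in AC and 623, 673, 494 and 726 CPM in TM, where AC replicates 2 and 4 stood above 1 and 3 and all were far below TM. KIF5A, a kinesin motor, and dnajc5b, a J-domain co-chaperone, were high in AC replicates 1 and 4, with 15.2, 0.721, 1.75 and 16.2 CPM for KIF5A and 6.93, 0.120, 0.0344 and 8.02 CPM for dnajc5b, and low in all TM libraries. dnajc5b lost its call without any 1 of the TM libraries (adjusted p up to 0.0833). For such genes the mean of a species does not describe its libraries.

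The germ line was compared through lists of named genes. These lists, like the comparison, were chosen with earlier results of these data known, and their counts are read against the 18.7% of all genes that were called. That share includes genes without a name, which the lists do not hold. Of the 10330 tested genes with a position matched by symbol, 7.67% were called higher and 7.97% lower. The summed level of the sperm tail genes ran from 1527 to 6875 CPM within AC, so such genes could differ without being called. They were seldom called: of 69 axoneme and flagellum genes tested, 1 was higher and 2 were lower (4.35%, median log2 fold change -0.06). The lower ones were dnai2b, a dynein intermediate chain, with 16.7, 35.5, 21.6 and 29.1 CPM in AC and 10.2, 9.65, 9.25 and 8.20 CPM in TM (log2 fold change -1.46 ± 0.24 SE, adjusted p = 0.00174), and enkur, which encodes a sperm and cilium adaptor protein, with 9.46, 6.85, 13.0 and 2.02 CPM in AC and 0.212, 0.357, 0.375 and 0.315 CPM in TM (log2 fold change -4.62 ± 0.73 SE, adjusted p = 0.00165). Unlike most genes of this list, dnai2b was higher in AC ovary (19.5 TPM) than in AC testes (7.12 TPM). enkur had 169 TPM in AC testes but at most 13.0 CPM, whereas dnali1 of this list had 125 TPM and 27.0 to 110 CPM. Why the counts of enkur were low beside its TPM was not tested. The microtubule protein gene tekt3 was higher, at 14.7 ± 5.25 against 2.71 ± 1.78 CPM, and lost its call without AC replicate 1 or TM replicate 1 or 3 (adjusted p up to 0.0527). Of 34 genes of meiosis and recombination, 2 were higher and 1 was lower (8.82%). terb2, which tethers telomeres to the nuclear envelope, had 49.98, 56.7, 64.0 and 61.6 CPM in AC and 98.1, 103, 96.0 and 90.6 CPM in TM (log2 fold change 0.74 ± 0.13 SE, adjusted p = 0.00353). psmc3ip, a cofactor of strand exchange, went from 70.004 ± 15.5 to 130.2 ± 26.1 CPM, and its call was lost in 7 of the 8 single-library omissions (all but that of AC replicate 3, adjusted p up to 0.166). Of 18 genes of gamete surface and sperm motility, 2 were higher and 1 was lower (16.7%). The lower one, gapdhs, encodes a glyceraldehyde-3-phosphate dehydrogenase known from sperm of mammals. It had 156, 155, 109.9 and 192 CPM in AC and 64.1, 61.2, 66.3 and 71.4 CPM in TM (log2 fold change -1.22 ± 0.19 SE, adjusted p = 0.00138). spaca4l, a sperm acrosome membrane gene, rose from 27.3 ± 6.78 to 60.7 ± 10.6 CPM, and tppp2, of the tubulin polymerisation-promoting family, had 0.0802, 0, 0.378 and 0.0388 CPM in AC and 0.550, 0.581, 0.917 and 1.04 CPM in TM (log2 fold change 2.53 ± 0.78 SE, adjusted p = 0.0423). Its call was lost without any library but AC replicate 3 (adjusted p up to 0.119), and without that library the log2 fold change was 4.11.

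At the start of the lineage, 1 of 25 spermatogonial genes was higher and 3 were lower (16%). The summed level of the list was higher in TM without overlap, at 1880 to 2397 CPM in AC and 2498 to 2778 CPM in TM. Without pou5f3 the sums were 1487 to 1910 CPM in AC and 1794 to 1989 CPM in TM, which overlapped. The receptor gene kitb (chromosome 6, 18130815 to 18150306), a marker of differentiating spermatogonia in mammals, showed the clearest difference: 80.6, 54.8, 45.5 and 50.9 CPM in AC against 4.99, 6.30, 5.46 and 3.74 CPM in TM (log2 fold change -3.50 ± 0.24 SE, adjusted p = 1.06e-05), with MZ between at 39.9 and 30.3 CPM. kitlga, a ligand of KIT receptors that was listed with the Sertoli cells, was also lower, with 12.3, 10.7, 10.7 and 13.5 CPM in AC and 1.23, 2.19, 1.46 and 7.16 CPM in TM (log2 fold change -1.97 ± 0.49 SE, adjusted p = 0.0165). The fourth TM library stood apart from the other 3, and without it the log2 fold change was -2.86 (adjusted p = 2.44e-04); without TM replicate 2 the call was lost (adjusted p = 0.0528). ret, the receptor for GDNF on spermatogonial stem cells in mammals, had 16.4, 16.9, 9.39 and 38.8 CPM in AC and 2.96, 5.003, 3.42 and 9.37 CPM in TM (log2 fold change -1.97 ± 0.47 SE, adjusted p = 0.0147). The highest TM library came within 0.1 CPM of the lowest AC library without crossing it. sall4, a zinc finger factor of stem cells, fell from 58.1 ± 13.4 to 38.1 ± 3.99 CPM, and pou5f3, a pluripotency factor, rose from 458 ± 57.0 to 758 ± 56.6 CPM. The call of sall4 was lost in some single-library omissions (adjusted p up to 0.1003) and that of pou5f3 in each of the 8 (up to 0.113). The germ cell helicase gene ddx4, by contrast, had 401, 390.2, 319.9 and 499 CPM in AC and 464, 496, 462 and 572 CPM in TM, which overlapped (adjusted p = 0.218).

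Of 21 genes of the piRNA pathway, 1 was higher and 1 was lower (9.52%). The entry that carries most of the counts of piwil1, which encodes a PIWI protein of the germ line, was ENSACLG00000014540, with 666, 619, 695 and 576 CPM in AC and 596, 688, 644 and 763 CPM in TM (log2 fold change 0.07 ± 0.15 SE, adjusted p = 0.777). piwil2 had 262, 272, 223 and 293 CPM in AC and 212, 237, 221 and 273 CPM in TM (log2 fold change -0.16 ± 0.14 SE, adjusted p = 0.490). Neither of these differed beyond the spread between libraries. The additional piwil1 entries were low and sat higher in TM. ENSACLG00000005074 had 0.361, 0.240, 0.241 and 0.775 CPM in AC and 3.005, 2.81, 3.12 and 3.74 CPM in TM (log2 fold change 2.96 ± 0.40 SE, adjusted p = 5.92e-04). Its groups did not overlap. ENSACLG00000005760 had 0.681, 1.202, 0.894 and 7.56 CPM in AC and 8.89, 9.34, 10.3 and 12.2 CPM in TM, with 10.6 and 11.3 CPM in MZ (log2 fold change 1.98 ± 0.66 SE, adjusted p = 0.0600). It missed the threshold with all libraries; AC replicate 4 stood apart, and without it the log2 fold change was 3.45 (adjusted p = 6.13e-05). Copies of piwil1 are closely related, and how the reads divide among these entries was not tested. tdrd9, a helicase of piRNA production, was the lower member, with 186, 219, 229.9 and 205 CPM in AC and 115, 129, 115 and 139 CPM in TM (log2 fold change -0.75 ± 0.13 SE, adjusted p = 0.00273). Of 26 genes of DNA methylation and heterochromatin, 2 were higher and 2 were lower (15.4%). The higher ones were cbx5, which encodes heterochromatin protein 1 alpha, at 71.0 ± 8.77 against 111 ± 5.87 CPM, and the maintenance methyltransferase gene dnmt1, at 107 ± 11.99 against 162 ± 26.9 CPM, whose call was lost under total counts and without AC replicate 1 or 2 or TM replicate 1 or 3 (adjusted p up to 0.111). The lower ones were tet1, which oxidises methylated cytosine, with 15.6, 5.09, 21.2 and 8.60 CPM in AC and 3.68, 4.74, 4.54 and 4.14 CPM in TM (log2 fold change -1.56 ± 0.38 SE, adjusted p = 0.0158), and the de novo methyltransferase gene dnmt3bb.1, with 8.50, 7.13, 9.84 and 11.4 CPM in AC and 4.66, 4.60, 5.08 and 5.13 CPM in TM (log2 fold change -0.92 ± 0.20 SE, adjusted p = 0.00914).

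Genes of androgen conversion differed in both directions. Of 52 genes of Leydig cells and steroid synthesis, 7 were higher and 3 were lower (19.2%, close to all genes). Both 5α-reductase genes, whose products reduce testosterone to dihydrotestosterone, were higher in TM. srd5a1 (chromosome 22, 30506913 to 30528736) had 1.28, 1.24, 1.07 and 0.892 CPM in AC and 12.02, 14.96, 14.9 and 22.8 CPM in TM (log2 fold change 3.85 ± 0.33 SE, adjusted p = 3.66e-05). srd5a2a (chromosome 6, 465787 to 487593) had 7.58, 7.21, 4.99 and 6.71 CPM in AC and 44.9, 47.0, 39.5 and 52.7 CPM in TM (log2 fold change 2.80 ± 0.21 SE, adjusted p = 1.36e-05). In MZ the former was at 8.31 and 19.7 CPM and the latter at 0.962 and 1.57 CPM, on opposite sides. Of the enzymes on the route to 11-ketotestosterone, cyp11c1 and hsd11b2 were lower. cyp11c1, the 11β-hydroxylase (chromosome 11, 21189554 to 21207550), had 17.3, 12.1, 15.8 and 15.9 CPM in AC and 2.75, 1.65, 3.04 and 9.50 CPM in TM (log2 fold change -1.85 ± 0.46 SE, adjusted p = 0.0178). hsd11b2, which oxidises the 11-hydroxyl group, had 74.1, 65.9, 50.2 and 44.7 CPM in AC and 20.4, 31.1, 22.4 and 51.1 CPM in TM (log2 fold change -0.91 ± 0.28 SE, adjusted p = 0.0433). The groups of hsd11b2 overlapped. TM replicate 4 was again the library nearest to AC; without it the log2 fold changes were -2.62 (adjusted p = 5.15e-04) and -1.25 (adjusted p = 0.00594). With other single libraries left out, the call of hsd11b2 was lost (adjusted p up to 0.0954). The summed level of the steroid list in that library was 4820 CPM, against 3315 to 3566 CPM in the other TM and 2952 to 3800 CPM in the AC libraries, and the part of this in the values was not tested.

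Earlier steps of steroid synthesis did not pass the test. star, which brings cholesterol into the mitochondrion, had 359, 329, 332 and 240.2 CPM in AC and 455, 268, 487 and 675 CPM in TM (adjusted p = 0.128), and it passed only without TM replicate 2 (adjusted p = 0.0342). cyp17a1, the lyase that opens the route to androgens, had 433, 582, 404 and 417 CPM in AC and 386, 387, 402 and 838 CPM in TM (adjusted p = 0.784). The aromatase gene cyp19a1a also missed the threshold (adjusted p = 0.0668) and passed with DESeq2 (adjusted p = 0.0472). Its log2 fold change ran from -2.90 to -1.95 when single libraries were left out. Of the further called members, hsd3b7, an enzyme of bile acid synthesis, rose from 22.8 ± 4.84 to 57.6 ± 12.7 CPM, and rxfp2a, a relaxin family receptor, from 1.96 ± 0.694 to 11.2 ± 3.11 CPM, whereas hmgcs1, an early enzyme of cholesterol synthesis, fell from 181 ± 42.5 to 92.7 ± 9.28 CPM. Of 45 Sertoli cell genes, 4 were higher and 3 were lower (15.6%). inhbaa, the activin βA subunit, had 18.4, 14.5, 16.7 and 16.01 CPM in AC and 7.62, 8.31, 7.54 and 8.51 CPM in TM (log2 fold change -1.04 ± 0.17 SE, adjusted p = 0.00207). cyp26b1, which degrades retinoic acid, rose from 1.97 ± 1.23 to 7.08 ± 2.38 CPM, with its call lost without AC replicate 2 or TM replicate 2 (adjusted p up to 0.0535). dmrt1 had 59.0, 66.8, 69.3 and 51.0 CPM in AC and 69.5, 53.9, 68.3 and 63.8 CPM in TM, which overlapped (adjusted p = 0.874). amh, the anti-Müllerian hormone gene, had 70.06, 49.8, 40.2 and 41.3 CPM in AC and 60.9, 105, 65.4 and 98.1 CPM in TM and missed the threshold (adjusted p = 0.0617), and it passed without AC replicate 1 (adjusted p = 0.0328) and with DESeq2 (adjusted p = 0.0398). Of the oocyte list 3 of 23 genes were higher and none was lower (13%, median log2 fold change 0.31), by name ccnb1, pou5f3 and cldnd. The claudin gene cldnd had 278, 666, 337 and 514 CPM in AC and 879.9, 769, 771 and 1051 CPM in TM, and its call was lost in every single-library omission but that of AC replicate 2 (adjusted p up to 0.101). Among genes known from oocytes, zar1 had 1409, 1929.5, 940.3 and 1890.0 CPM in AC and 1704, 2113, 1495 and 2635 CPM in TM (adjusted p = 0.424), and gdf9 had 204, 275, 195 and 265 CPM in AC and 329, 322, 318 and 349.6 CPM in TM (adjusted p = 0.0596). The groups of gdf9 did not overlap, and it passed with AC and TM alone (adjusted p = 0.0312) and with DESeq2 (adjusted p = 0.0378).

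The endothelial list and the list of antigen presentation had larger shares of calls than all genes together (18.7%), most of them lower in TM. Both lists are short, and whether their shares differ from that of all genes was not tested. Of 25 endothelial genes, 1 was higher and 6 were lower (28%, median log2 fold change -0.30). kdr, the main VEGF receptor (chromosome 23, 7940941 to 7960220), moved against the rest, with 11.6, 12.8, 4.71 and 3.02 CPM in AC and 82.1, 74.7, 82.1 and 49.1 CPM in TM (log2 fold change 3.17 ± 0.45 SE, adjusted p = 9.91e-04); MZ lay on the TM side with 57.3 and 29.1 CPM. The junction gene cdh5 had 13.9, 12.4, 20.4 and 9.57 CPM in AC and 4.57, 7.86, 5.46 and 6.94 CPM in TM (log2 fold change -1.18 ± 0.30 SE, adjusted p = 0.0185). vwf, von Willebrand factor, had 4.45, 4.17, 3.23 and 4.81 CPM in AC and 1.61, 1.25, 2.17 and 1.67 CPM in TM (log2 fold change -1.31 ± 0.30 SE, adjusted p = 0.0116). plvapb, tie1, robo4 and mmrn2a fell by between 0.84 and 1.28 on the log2 scale. The calls of cdh5, tie1, robo4 and mmrn2a were lost in some single-library omissions (adjusted p up to 0.0517, 0.0668, 0.101 and 0.0856). The summed level of the endothelial list overlapped, at 182 to 265 CPM in AC and 234 to 289 CPM in TM. Of 28 genes of antigen presentation and interferon response, 2 were higher and 5 were lower (25.0%), and the summed level was 528 to 544 CPM in AC and 438 to 473 CPM in TM without overlap. stat2, a transducer of interferon signals, had 37.6, 30.5, 44.6 and 33.6 CPM in AC and 20.9, 17.1, 20.9 and 16.8 CPM in TM (log2 fold change -0.95 ± 0.21 SE, adjusted p = 0.00942). psmb9a, an immunoproteasome subunit, had no read in any AC library and 1.35, 1.92, 1.67 and 3.11 CPM in TM, from 32, 43, 40 and 69 reads. Against a floor of 3 counts in each AC library this is at least 17.5-fold higher. The share of this list rested in part on weak calls. irf7, trim25, psmb10 and isg15 lost theirs in 1 or more single-library omissions, at adjusted p up to 0.124, 0.0855, 0.117 and 0.0523.

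Of 35 leukocyte genes, 3 were higher and 3 were lower (17.1%, median log2 fold change -0.41). The summed level was 643 to 1299 CPM in AC and 155 to 185 CPM in TM, and most of that gap was lcp1: without it the sums were 167 to 850 CPM and 153 to 184 CPM, which overlapped. zap70, a kinase of T cell signalling, fell from 3.90 ± 2.51 to 0.945 ± 0.106 CPM, and gata3, a T cell factor, rose from 1.31 ± 0.413 to 5.06 ± 1.52 CPM. All 3 tested genes of the NLR and GIMAP families were lower, with log2 fold changes from -2.27 to -0.85, and each lost its call in some single-library omissions. Of 20 blood cell genes 1 was higher and none was lower (5%). Of 24 smooth muscle and peritubular genes, 4 were higher and 1 was lower (20.8%), a share close to that of all genes. cnn1b, the smooth muscle calponin, had 28.1, 29.6, 21.7 and 22.7 CPM in AC and 63.4, 63.6, 69.5 and 64.5 CPM in TM (log2 fold change 1.35 ± 0.19 SE, adjusted p = 6.75e-04). mylka, myosin light chain kinase, had 58.3, 53.9, 28.7 and 33.9 CPM in AC and 84.2, 139.6, 92.8 and 87.2 CPM in TM (log2 fold change 1.21 ± 0.26 SE, adjusted p = 0.00767). notch3 fell from 5.82 ± 0.925 to 1.77 ± 0.655 CPM. Of 60 collagen and matrix genes, 3 were higher and 6 were lower (15%). timp2b, an inhibitor of matrix proteases, had 18.6, 14.9, 12.8 and 14.8 CPM in AC and 1.99, 2.46, 1.92 and 1.67 CPM in TM (log2 fold change -2.92 ± 0.28 SE, adjusted p = 7.26e-05). The laminin gene lamc3 had 3.89, 3.97, 3.40 and 3.26 CPM in AC and 13.3, 13.3, 14.8 and 10.3 CPM in TM (log2 fold change 1.83 ± 0.26 SE, adjusted p = 8.51e-04). Markers of adjoining liver, pancreas, muscle and fat gave 2 higher and 5 lower of 27 (25.9%). The higher ones were cidec, a lipid droplet gene of fat, and fabp10a, a fatty acid-binding protein of liver. cidec had 129, 138, 113 and 166 CPM in AC and 249, 191, 229 and 196 CPM in TM, with its call lost without AC replicate 1 or TM replicate 1 or 3 (adjusted p up to 0.0643). fabp10a was at a trace level, with 0, 0.0401, 0 and 0.0775 CPM in AC and 0.550, 0.357, 0.458 and 0.721 CPM in TM. The lower ones included CPA1, a pancreatic carboxypeptidase, at 36.4 ± 7.31 against 8.08 ± 2.44 CPM, and ceruloplasmin, cp, at 3.97 ± 1.40 against 0.671 ± 0.148 CPM. The insulin gene ins had 0.962, 1.16, 0.619 and 1.63 CPM in AC and 0.508, 0.179, 0.333 and 0.0901 CPM in TM, and its call was lost in some single-library omissions (adjusted p up to 0.117). The summed level of the list was 3586 to 5776 CPM in AC and 4665 to 7769 CPM in TM, which overlapped. Whether tissue taken along at dissection had a part in such values was not tested.

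**Figure D3:**
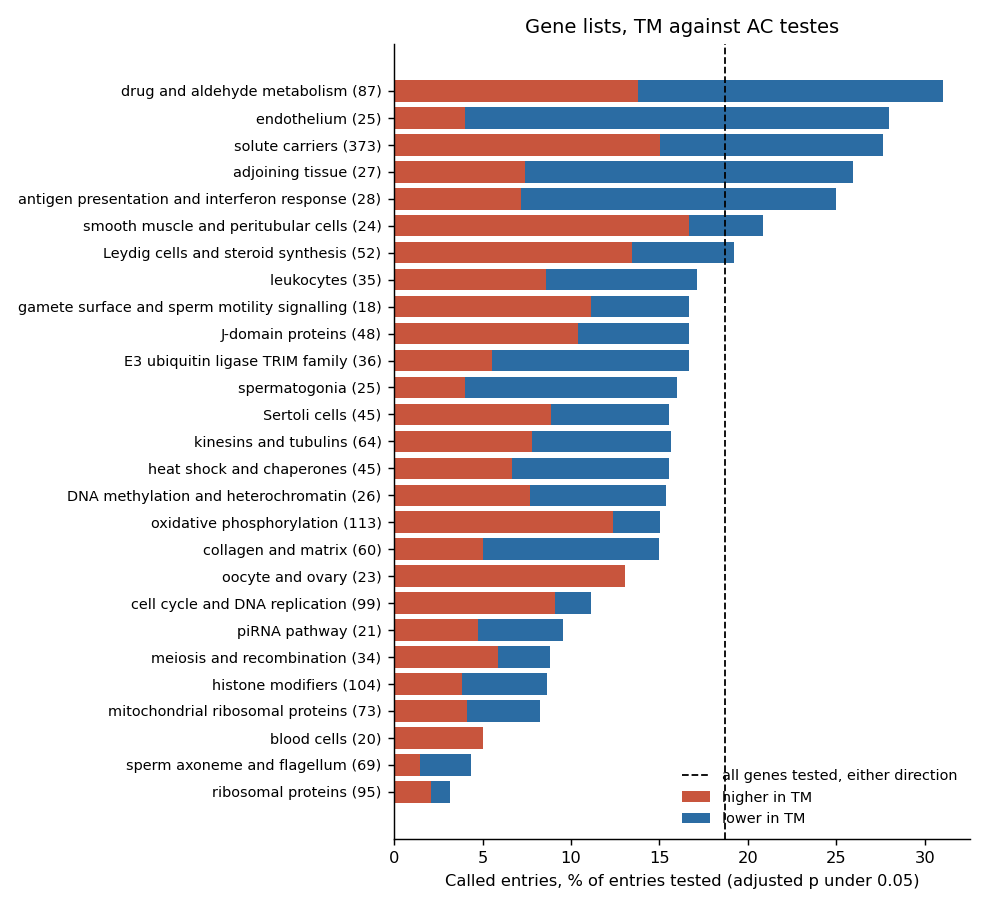
Share of the tested entries of each gene list that was called (x axis, percent of entries tested; the number tested is in parentheses), split into higher in TM (red) and lower in TM (blue), for the 27 lists with at least 15 tested entries. The dashed line is the share of all genes, 18.7%; drug and aldehyde metabolism (31.0%), endothelium (28%) and solute carriers (27.6%) lie above it, and ribosomal proteins (3.16%) and the sperm axoneme (4.35%) lie lowest.

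The lists of drug and aldehyde metabolism and of solute carriers had larger shares of calls than all genes, in both directions. Of 87 genes of drug and aldehyde metabolism, 12 were higher and 15 were lower (31.0%). nqo1, a quinone reductase, had 222, 146, 185 and 347 CPM in AC and 621, 672, 477 and 834 CPM in TM (log2 fold change 1.53 ± 0.28 SE, adjusted p = 0.00370). cyp2n13, a cytochrome P450, had 0.641, 0.641, 0.963 and 0.504 CPM in AC and 7.15, 10.7, 6.96 and 9.32 CPM in TM (log2 fold change 3.62 ± 0.38 SE, adjusted p = 1.21e-04). The epoxide hydrolase gene ephx2 had 15.95, 1.08, 18.3 and 17.9 CPM in AC and 63.9, 65.5, 61.7 and 62.7 CPM in TM, with AC replicate 2 alone far below the others, and lost its call without AC replicate 1 or TM replicate 1 or 3 (adjusted p up to 0.0587). The glutathione transferase gene gstt1b was lower, with 73.4, 81.3, 55.6 and 87.3 CPM in AC and 23.1, 24.6, 22.2 and 19.3 CPM in TM (log2 fold change -1.74 ± 0.28 SE, adjusted p = 0.00179). Of 373 solute carrier genes, 56 were higher and 47 were lower (27.6%). slc22a7a, an organic anion transporter, had 0.0802, 0.160, 0.241 and 0.0775 CPM in AC and 10.4, 14.3, 12.2 and 14.9 CPM in TM (log2 fold change 6.46 ± 0.58 SE, adjusted p = 4.48e-05), with MZ at 0.308 and 0 CPM. slc19a3b, of the thiamine transporter family, rose from 0.399 ± 0.149 to 8.88 ± 4.49 CPM, and slc7a11, the cystine carrier, from 2.13 ± 1.26 to 24.0 ± 7.01 CPM. slc1a6, of the glutamate transporter family, had 72.9, 48.8, 45.7 and 69.7 CPM in AC and 7.11, 5.99, 7.83 and 6.76 CPM in TM (log2 fold change -3.10 ± 0.22 SE, adjusted p = 1.16e-05), with MZ on the AC side (118 and 74.6 CPM). slc15a1b, a peptide transporter, fell from 20.8 ± 5.52 to 2.94 ± 1.49 CPM.

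Lists of general cell functions had smaller shares than the 18.7% of all genes, which include genes without a name. Of the 10330 tested genes with a position matched by symbol, 7.67% were called higher and 7.97% lower. Beside these, the largest of the shares below were not smaller. Of 95 entries on the ribosomal protein list, 2 were higher and 1 was lower (3.16%), and of these only rpl30 encodes a ribosomal protein; RPS6KB2 and rps6kl1, which matched by name, belong to the S6 kinase family. rpl30 had 76.7, 82.0, 66.3 and 80.5 CPM in AC and 185, 154, 158 and 185 CPM in TM (log2 fold change 1.16 ± 0.16 SE, adjusted p = 5.74e-04). Of 113 genes of oxidative phosphorylation, 14 were higher and 3 were lower (15%), with small changes on the higher side. ndufa7, a complex I subunit, had 68.3, 76.9, 66.8 and 77.4 CPM in AC and 132, 112, 120.4 and 133 CPM in TM (log2 fold change 0.78 ± 0.12 SE, adjusted p = 0.00165). sdhb, of complex II, had 55.7, 72.3, 54.4 and 64.4 CPM in AC and 97.1, 89.4, 84.5 and 108 CPM in TM (log2 fold change 0.62 ± 0.14 SE, adjusted p = 0.0113). The median of that list was 0.20 with TMM and 0.04 with total counts. Of 99 genes of cell cycle and DNA replication, 9 were higher and 2 were lower. mad2l1, of the spindle checkpoint, had 34.5, 41.3, 37.3 and 32.9 CPM in AC and 118, 89.5, 109 and 102 CPM in TM (log2 fold change 1.52 ± 0.18 SE, adjusted p = 2.96e-04), ccne1, cyclin E1, had 84.7, 83.9, 73.7 and 93.0 CPM in AC and 180.5, 176, 167 and 191 CPM in TM (log2 fold change 1.09 ± 0.24 SE, adjusted p = 0.00913). tk1, thymidine kinase, fell from 69.6 ± 20.5 to 25.3 ± 3.88 CPM. The summed level of the list was 12252 to 14958 CPM in AC and 16486 to 17972 CPM in TM. Of 104 histone modifiers 4 were higher and 5 were lower (8.65%), of which HDAC2 fell from 40.4 ± 6.29 to 18.4 ± 1.25 CPM and EZH1 from 26.1 ± 5.96 to 10.1 ± 1.90 CPM, and both entries of hdac1 rose (adjusted p = 0.0439 and 0.00193), the former only until certain single libraries were left out (adjusted p up to 0.137). The remaining lists also had shares under 18.7%: mitochondrial ribosomal proteins 3 higher and 3 lower of 73 (8.22%), heat shock and chaperones 3 and 4 of 45 (15.6%), J-domain proteins 5 and 3 of 48 (16.7%), kinesins and tubulins 5 and 5 of 64 (15.6%), and the TRIM ubiquitin ligases 2 and 4 of 36 (16.7%).

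Several genes that are present as more than 1 entry under the same name moved in opposite directions. Of 792 names with at least 2 tested entries, 61 had at least 2 called, and in 26 of these 1 or more entries were higher and 1 or more were lower in TM. Over all genes 1766 calls were higher and 2013 lower, so called entries of 1 name would often differ in direction on that split alone. For 16 of the 26, the summed level of all entries overlapped between the species, and for 10 it did not. Of all genes tested, 28.2% did not overlap. Names were picked here for opposite calls, which by itself brings the sums of the species closer. dlst, a subunit of the 2-oxoglutarate dehydrogenase complex, had 64.7, 94.6, 70.8 and 97.4 CPM in AC and 43.1, 43.5, 45.2 and 42.8 CPM in TM at ENSACLG00000013180, and 140.0, 131, 125 and 143 CPM in AC and 182, 203, 166 and 216 CPM in TM at ENSACLG00000024780. Its sum was 217 ± 20.5 CPM in AC and 236 ± 21.2 CPM in TM. rbp5, a retinol-binding protein, had 39.6, 26.9, 30.0 and 53.0 CPM in AC and 83.6, 94.4, 76.0 and 83.3 CPM in TM at ENSACLG00000020557 and 53.6, 85.2, 55.4 and 57.8 CPM in AC and 18.5, 14.03, 15.8 and 18.8 CPM in TM at ENSACLG00000024378. The sum was 100.4 ± 13.2 CPM in AC and 101 ± 6.87 CPM in TM. The acyl-CoA-binding protein gene dbi had sums of 99.5 ± 13.5 CPM in AC and 102 ± 13.5 CPM in TM, and the calcium-activated chloride channel gene ano1 had sums of 13.7 ± 1.94 CPM in AC and 13.5 ± 1.32 CPM in TM. For hspa5, the main chaperone of the endoplasmic reticulum, ENSACLG00000010903 rose from 195 ± 56.9 to 405 ± 138 CPM and ENSACLG00000010993 fell from 498 ± 103 to 306 ± 42.8 CPM. The sums were 693 ± 157 CPM in AC and 711 ± 173 CPM in TM, and both calls were lost in some single-library omissions (adjusted p up to 0.0832 and 0.0824). fkbp4, an HSP90 co-chaperone, differed in its sum as well as in its entries, at 108 ± 7.36 CPM in AC and 128 ± 5.77 CPM in TM, without overlap. igbp1, a partner of phosphatase 2A, had an entry near 0 in TM, ENSACLG00000025783, with 21.9, 25.4, 9.77 and 13.3 CPM in AC and 0, 0.223, 0.0833 and 0.135 CPM in TM, and its sum was 82.8 ± 7.51 CPM in AC and 89.9 ± 7.72 CPM in TM. SERPINB1 exchanged its main entry: ENSACLG00000015033 rose as described above, while ENSACLG00000024570 had 608, 752, 509 and 801 CPM in AC and 189.7, 232, 167 and 257 CPM in TM (log2 fold change -1.66 ± 0.31 SE, adjusted p = 0.00376). The sum of 5 entries was 713 ± 157 CPM in AC and 856 ± 139 CPM in TM. cndp2, a dipeptidase, with log2 fold changes of -1.94, 1.94 and 0.66 at its called entries, had sums of 589 ± 96.7 CPM in AC and 858 ± 71.6 CPM in TM that did not overlap. Entries of 1 name can share reads, so the level of a single entry is uncertain where its copies are similar, and whether reads of TM were assigned to the other copy was not tested.

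**Figure D4:**
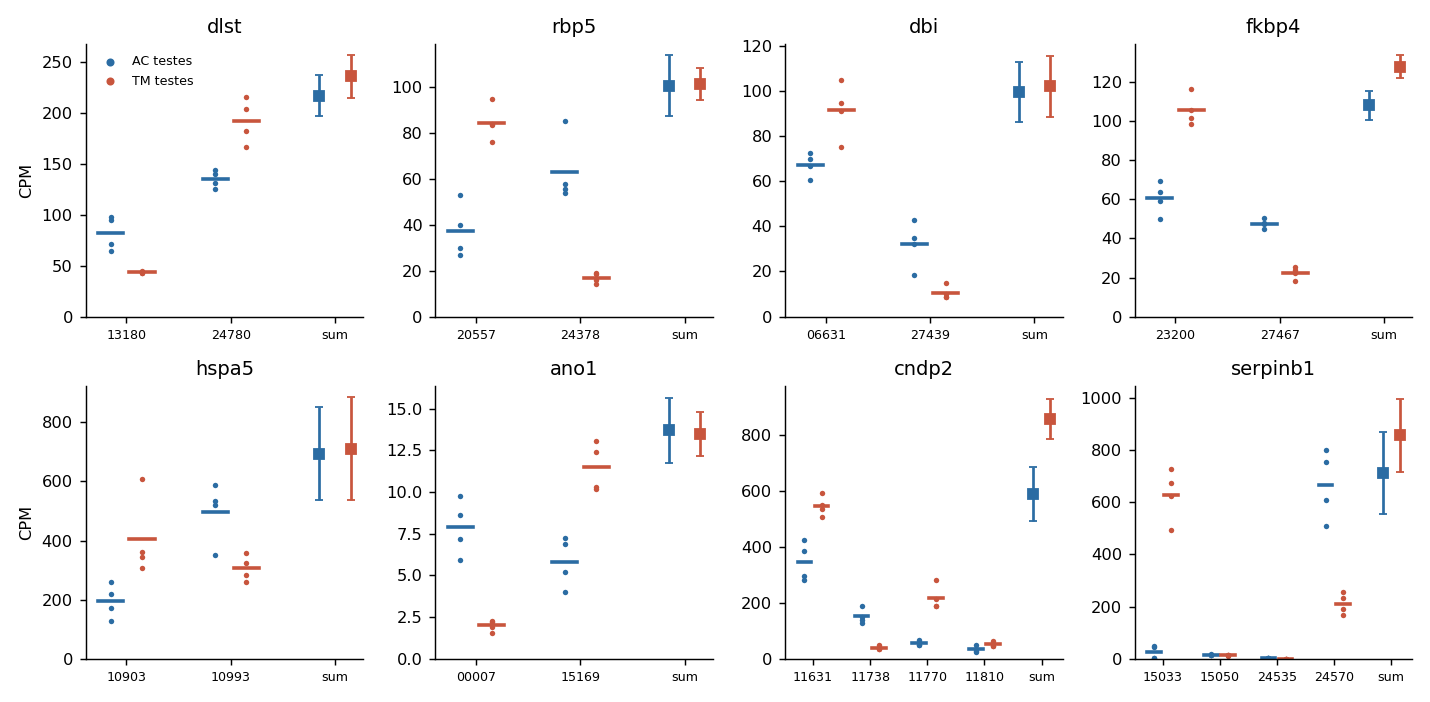
CPM of the single entries (points, 1 per library; bars, mean of 4) and of their sum (squares with SD, n = 4) for 8 gene names with calls in both directions, AC in blue and TM in red; entries are marked by the last 5 digits of their identifiers and those under 1 CPM are drawn only in the sum. In dlst, rbp5, dbi, hspa5, ano1 and serpinb1 the sums of the 2 species overlap.

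TE families differed about as often as genes, and the share called was largest among the LTR retrotransposons, which copy themselves through RNA and carry long terminal repeats (LTRs) at both ends. Families are counted here as annotated, where the internal part and the terminal repeat of an LTR element are separate entries. Of 519 families tested, 114 were called (22.0%), 70 higher in TM (13.5%) and 44 lower (8.48%). Scaling on total counts gave 54 and 58, and scaling and testing on TE families alone gave 83 and 93, so that the excess of higher over lower calls was lost under both. Of 313 LTR entries 54 were higher and 36 were lower (28.8%). They held 162 internal parts and 122 terminal repeats, and 121 families entered with both parts and could be counted under each. Of 132 DNA transposon families 12 were higher and 4 lower (12.1%), and of 70 LINE families 4 and 4 (11.4%). None of the 3 SINE families and not the 1 Helitron family passed the test. Within LTR elements, 39 of 182 Gypsy entries were higher and 23 were lower (34.1%), and 7 of 77 Pao entries were higher and 10 were lower (22.1%). In counts above 10 in at least 2 libraries, 495 of the 557 families were found in both species, 8 in AC only and 7 in TM only.

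Of DNA transposons, PiggyBac-2 had 6.13, 5.77, 4.75 and 6.82 CPM in AC and 22.8, 25.5, 22.6 and 22.5 CPM in TM (log2 fold change 1.99 ± 0.18 SE, adjusted p = 4.48e-05). The TM libraries lay close together and far above AC, and MZ, with 6.08 and 6.95 CPM, was at the AC level. PiggyBac-1 had 7.01, 5.69, 5.71 and 6.67 CPM in AC and 3.81, 4.51, 3.9998 and 4.37 CPM in TM (log2 fold change -0.59 ± 0.20 SE, adjusted p = 0.0590). Its groups did not overlap, but it missed the threshold, which it passed under 5 alternatives, among them DESeq2 (adjusted p = 0.0146) and total counts (adjusted p = 0.0242). PiggyBac-5 had 16.2, 16.7, 15.99 and 16.6 CPM in AC and 16.1, 18.9, 15.7 and 14.9 CPM in TM (adjusted p = 0.999). The unclassified DNA family NA-DNA-2 had 6.13, 7.85, 6.16 and 9.42 CPM in AC and 45.1, 47.9, 52.8 and 83.0 CPM in TM (log2 fold change 2.95 ± 0.52 SE, adjusted p = 0.00336). The MZ libraries were split at 8.12 and 68.2 CPM. Among Gypsy elements higher in TM, the internal part of Gypsy-56 had 12.1, 15.7, 13.2 and 15.6 CPM in AC and 62.8, 77.3, 65.0 and 125 CPM in TM (log2 fold change 2.54 ± 0.26 SE, adjusted p = 1.19e-04), that of Gypsy-102 had 22.3, 26.3, 24.9 and 16.05 CPM in AC and 89.5, 114, 98.0 and 113 CPM in TM (log2 fold change 2.21 ± 0.28 SE, adjusted p = 3.75e-04). That of Gypsy-116 had 1.56, 1.68, 0.825 and 1.28 CPM in AC and 8.72, 9.74, 10.5 and 9.41 CPM in TM (log2 fold change 2.84 ± 0.28 SE, adjusted p = 7.21e-05). Gypsy-108 rose from 6.91 ± 1.93 to 30.1 ± 5.34 CPM. On the lower side, the internal part of Pao-37 had 13.5, 8.45, 19.0 and 26.2 CPM in AC and 1.69, 1.88, 1.9999 and 1.89 CPM in TM (log2 fold change -3.17 ± 0.34 SE, adjusted p = 1.59e-04). That of Pao-33 had 15.1, 16.9, 21.2 and 20.2 CPM in AC and 1.65, 3.57, 2.37 and 3.69 CPM in TM (log2 fold change -2.70 ± 0.28 SE, adjusted p = 1.12e-04). For Gypsy-73, Gypsy-83 and Gypsy-64 the mean level of that part fell from 28.1 ± 3.67, 22.3 ± 7.58 and 44.4 ± 23.4 CPM to 4.92 ± 1.63, 4.50 ± 1.14 and 10.8 ± 3.01 CPM.

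The internal part of an LTR element, which encodes its proteins, and its terminal repeat are counted apart in the curated annotation. Both parts were tested in 121 families. Both were called in 19 of them, 13 with both parts higher, 5 with both lower and 1 with opposite directions. The internal part alone was called in 24 families and the terminal repeat alone in 11. Families with both parts lower included Pao-37 (log2 fold change -3.17 for the internal part and -2.96 for the repeat), Pao-33 (-2.70 and -1.45) and Gypsy-13 (-1.78 and -2.09), and families with both higher included Gypsy-102 (2.21 and 2.59), Gypsy-56 (2.54 and 1.47) and Gypsy-95 (1.93 and 1.49). Gypsy-46 was the exception. Its terminal repeat had 0.240, 0.721, 2.17 and 0.853 CPM in AC and 17.4, 38.1, 16.3 and 29.4 CPM in TM (log2 fold change 4.65 ± 0.69 SE, adjusted p = 0.00128), and its log2 fold change ran from 4.25 to 5.38 when single libraries were left out. The internal part was lower in TM, at a mean of 10.7 CPM in AC and 5.09 CPM in TM (adjusted p = 0.0225, log2 fold change -1.07).

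**Figure D5:**
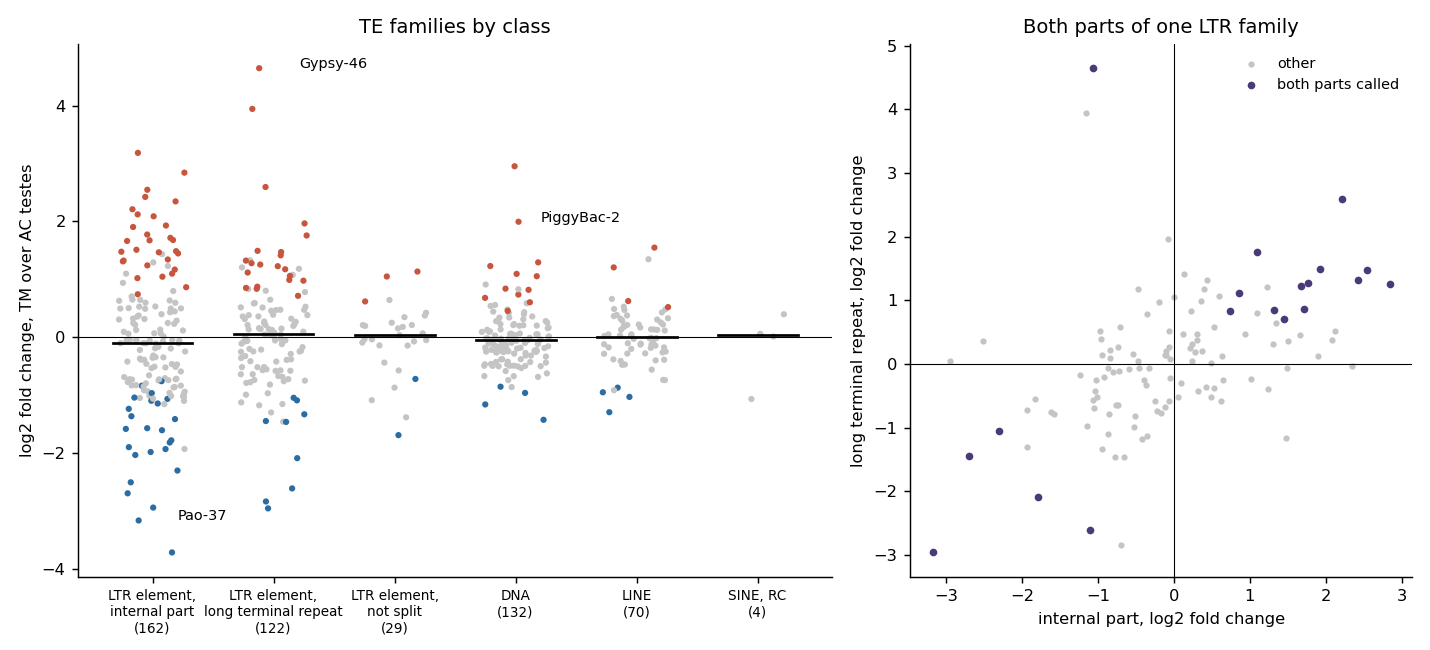
Left, log2 fold change of TM over AC testes for each tested TE family (points) by class, with families called higher in red, lower in blue and not called in grey, the number of families in parentheses and the median as a black bar. Right, the internal part (x axis) against the long terminal repeat (y axis) of the 121 LTR families with both parts tested; of the 19 with both parts called, 13 are higher in both, 5 lower in both, and Gypsy-46 is lower in the internal part and higher in the repeat.

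The TE share, all TE families summed, was 1.77, 1.61, 1.47 and 1.40% of assigned counts in AC and 1.30, 1.32, 1.42 and 1.09% in TM, so that the highest TM library lay above the lowest AC library. The difference of -0.281 points gave p = 0.0571 in an exact two-sided permutation test, adjusted over the total and 5 classes to 0.171, where 0.0286 is the smallest p that 4 against 4 libraries allow. By class, LTR elements made up 0.872 ± 0.197% (SD, n = 4) in AC and 0.674 ± 0.0923% in TM, LINEs 0.320 ± 0.0470% and 0.279 ± 0.0312%, and DNA transposons 0.336 ± 0.0402% and 0.304 ± 0.0254%. All these shares, the total included, are of counts without TMM scaling. The TMM factors were 0.995 to 1.13 in AC and 0.873 to 0.987 in TM. Without TMM the median log2 fold change over all genes was -0.18. With TMM, 12 DNA families were called higher in TM and 4 lower, although the mean DNA share was lower in TM. Only the Helitron (RC) share, 0.0188 ± 0.00585% against 0.00808 ± 0.00247%, did not overlap (exact permutation p = 0.0286, adjusted p = 0.171). Within the LTR class, mean sums of Gypsy, Pao and ERV1 scaled by TMM moved both ways. The libraries of the species overlapped in each of these, and none of these sums was tested. Gypsy had 1892 ± 245 CPM in AC and 2161 ± 80.2 CPM in TM, and Pao 509 ± 40.2 and 419 ± 52.0 CPM. The ERV1 group of endogenous retroviruses (ERVs) had 5641 ± 2322 and 4140 ± 650 CPM. Its internal part ERV1-3 alone had 2282 ± 1146 and 646 ± 342 CPM, and its part in the LTR share was not tested. The internal parts of the ERVs with the largest counts varied widely inside a species. ERV1-7 had 1597, 2081, 273 and 1102 CPM in AC and 2012, 2230, 2117 and 913 CPM in TM (adjusted p = 0.513). ERV1-3, the largest of the called families by counts, had 3470.0, 3057, 1248 and 1354 CPM in AC and 335, 791, 397 and 1059 CPM in TM (log2 fold change -1.82, adjusted p = 0.0383). ERV1-5 had 1298, 1322, 851 and 826 CPM in AC and 872, 892, 977 and 536 CPM in TM (adjusted p = 0.285). Of these 3 only ERV1-3 was called. The next in counts among called families, the repeat of Gypsy-84, was tighter, with 112, 134, 97.9 and 142 CPM in AC and 279, 257, 246 and 315 CPM in TM (log2 fold change 1.17, adjusted p = 0.00222).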

How the data were processed

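Directional poly-A RNA libraries were read in pairs. Per the submitters' notes and the study's methods, the authors trimmed reads with Trimmomatic 0.39, mapped those of AC, TM and MZ to the AC genome fAstCal1.2 with STAR 2.5.4b, keeping reads with several positions, and counted them by strand with TEtranscripts on genes and a curated Lake Malawi TE annotation. The deposited counts are raw. The deposited length-scaled TPM of AC tissues, from Salmon 1.5.1, list some genes more than once, so that plain column sums exceed the TPM total, and were handled as a score. That table gave gene names and levels in AC tissues.

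Features passing filterByExpr were scaled by TMM and fitted with edgeR 4.0.16 (R 4.3.3, robust quasi-likelihood) over 10 testis libraries (AC 4, MZ 2, TM 4). TM was contrasted with AC, p-values were adjusted by Benjamini-Hochberg over genes and TE families together, and an adjusted p under 0.05 was called. The fit was tested on simulated data before use. It recovered 33% of 100 genes changed by 1 on the log2 scale and 83% of 100 changed by 2, with 2.52% of calls false. Only these genes were changed among the 20311 features simulated, against 3779 genes called in the data, so these rates need not hold for the data. A gene that was not called can still differ. TE shares of counts were compared by exact permutation tests (Python 3.11.15, scipy 1.17.1). Members and the 28 gene lists were chosen with earlier results of these data known. Genes named were, in each direction, the 10 named and 3 unnamed with the largest change at a mean of at least 10 CPM without overlap, the 5 most abundant called genes changed at least 2-fold, the leading called members of each list, and a set of testis genes given whatever their result; TE families were the 6 with the largest change at a mean of at least 5 CPM and every PiggyBac family. Genes varying within a species, further called list members, entries sharing a name and the ERV families were chosen after their values were seen. Alternatives were other scalings, filters, DESeq2 1.42.0, AC and TM alone, TE families alone, a replicate block and leaving out each library.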

Additional observations from a re-analysis of the deposited data

Results flagged for a closer look

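Among 293 groups of 4 libraries examined, 15 had 1 library far from the other 3 by Dixon's criterion, where chance gives about 1 in 20, which is about the number found. TM replicate 4 was the library apart in TMEM120A (88.1 CPM against 51.1 to 52.7), TNNI2 (99.1 against 34.6 to 43.4), kitlga (7.16 against 1.23 to 2.19), the small heat shock gene hspb8 (9.19 against 4.78 to 5.42) and cyp17a1 (838 against 386 to 402). TM replicate 2 was apart in PiggyBac-2 (25.5 against 22.5 to 22.8), cbx5 (102.2 against 113 to 115) and mylka (139.6 against 84.2 to 92.8).

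AC replicate 2 was apart in the interferon factor gene irf7 (13.8 against 5.29 to 6.36), ephx2 (1.08 against 15.95 to 18.3), trim47 (78.5 against 66.1 to 67.7) and cyp17a1 (582 against 404 to 433). AC replicate 3 was apart in HEPACAM (44.9 against 123 to 132) and the transcription factor gene runx3 (2.17 against 0.961 to 1.00). AC replicate 4 was apart in the piwil1 entry ENSACLG00000005760 (7.56 against 0.681 to 1.202).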

How the results depend on the processing

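Of the 136 called genes and families named by rule, 99 were called under every alternative that gave a value, 37 were lost under 1 or more, and 0 reversed. The same count was not made for the other calls. The count of called genes, 3779, was 2671 with the replicate block, 4848 with DESeq2 and 4472 with AC and TM alone, and 2462 (without TM replicate 1) to 3252 (without AC replicate 4) when single libraries were left out. TE families called, 114, were 176 when scaled and tested alone, 87 with the replicate block and 81 to 102 when single libraries were left out. Correlations of deviations between AC and TM libraries ran from -0.0279 to 0.299 for equal and from -0.240 to 0.248 for other replicate numbers. The ranges overlapped, but the highest value belonged to an equal-number pair. With so few pairs, these values cannot decide whether replicate numbers pair the libraries. The Helitron share difference of -0.0107 points had an exact p = 0.125 over same-numbered pairs (pairing as the block), the smallest that 4 pairs allow, and ran from -0.0130 to -0.00873 without single libraries, at the smallest exact p = 0.0571 those sizes allow. With a minimum of 1 CPM in place of 5, genes near 0 in TM numbered 22 and in AC 21. Leaving out single libraries gave 5 to 9 in TM (9 without AC replicate 3) and 1 to 4 in AC (4 without TM replicate 4), with fewer libraries having to pass. Total counts lowered the median of all genes from -0.01 to -0.18 and list medians with it. The 4 libraries a group and assigned counts of 23631390 to 25642737 a library limit what differences were detectable.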
